A study of Ovis aries with 48 samples.

Results

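MIR199A and MIR218A are a pair on a list of mesenchymal and stromal microRNAs, a label that was not tested here. The pair was followed across fat depots of female sheep whose mothers had been treated in pregnancy. They are 2 rows, or 1.90%, of the microRNA table of each of 2 cohorts, in which at least 81 microRNAs had reads in every library. They were chosen by name with results of these data known: MIR218A had stood out between visceral and subcutaneous fat of control sheep, so that contrast is described here without a test. The libraries of sheep exposed to testosterone or bisphenol A took no part in that contrast; the effects of exposure and their change between depots are measured against its control libraries.

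A microRNA is a short RNA that guides Argonaute proteins to messenger RNAs with a matching site, mostly in the 3′ untranslated region, and lowers their translation or stability. In mammals miR-199a is known from fibroblasts, smooth muscle and other stromal cells, where it is made from a transcript running opposite to a dynamin gene. miR-218 is made from introns of the SLIT genes, whose secreted products guide axons and cells by binding ROBO receptors, and it is known to target ROBO1. In fat, mesenchymal cells include the precursors of adipocytes and the fibroblasts of the stroma.

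The RefSeq annotation of the assembly ARS-UI_Ramb_v3.0 places MIR199A on chromosome 12 within DNM3, a dynamin gene, and MIR218A on chromosome 16 within SLIT3. It has 1 entry of each. No other measured microRNA lay within or next to either host gene. In human the genome holds near-identical copies of both microRNAs, in other dynamin and SLIT genes, and reads of such copies, or of the 2 arms of a hairpin, cannot be told apart in these values.

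Small RNA was sequenced from 48 libraries of 16 sheep, in 12 groups of 4. In the T cohort (32 libraries), 4 prenatal T sheep came from mothers given 100 mg of testosterone propionate in corn oil intramuscularly, 2 injections a week, between gestational days 30 and 90; 4 control sheep were set against them, and each sheep gave subcutaneous, visceral, epicardial and perirenal fat. In the BPA cohort (16 libraries), 4 BPA sheep came from mothers given 0.5 mg/kg of bisphenol A a day in corn oil subcutaneously over the same days; the mothers of 4 control sheep received corn oil, and each sheep gave subcutaneous and visceral fat. All animals were kept together on a maintenance diet. The sources used here give neither the age of the sheep nor what the mothers of the T-cohort controls received, and a treatment group is a dose of hormone or chemical to the mother, so fetal exposure was not measured.

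The libraries held 222537 to 1533680 microRNA reads (median 605582.5). The authors had scaled each depot separately, and on their scale visceral libraries of the T cohort lay 0.84 log2 units below and perirenal libraries 0.64 above a scale set over all libraries of the cohort. Levels below are on that common scale unless stated, and treatment effects, which stay within a depot, are on the deposited scale. Library numbers in the labels fall into an early set (up to 48) and a later set (81 and above), unevenly spread over the groups. The visceral and perirenal libraries of prenatal T sheep 255 stood apart: 48 and 41 of 80 microRNAs lay more than 1 log2 unit from the mean of the other libraries of the group, against 35 at most in any other library of the T cohort. Values without that sheep are given beside the treatment effects and depot differences that they moved.

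The pair differed in abundance by orders of magnitude. MIR199A was among the more abundant microRNAs of every library: it ranked 3 to 17 (median 11) in the T cohort and 9 to 15 in the BPA cohort, and took 0.780% to 9.37% and 0.911% to 3.76% of microRNA reads. MIR218A ranked 38 to 67.5 in the T cohort and 40 to 65 in the BPA cohort. It had as few as 4 reads, in the subcutaneous library of prenatal T sheep 48, where its share was 0.00122% (exact Clopper-Pearson 95% interval 0.000332% to 0.00312%), and as many as 2049, in the perirenal library of prenatal T sheep 255, where its share was 0.179% (0.171% to 0.187%). These intervals cover counting error only. MIR218A also varied more: its highest common-scale value was 53.6 times its lowest in the T cohort, against 4.95 times for MIR199A.

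**Figure D1:**
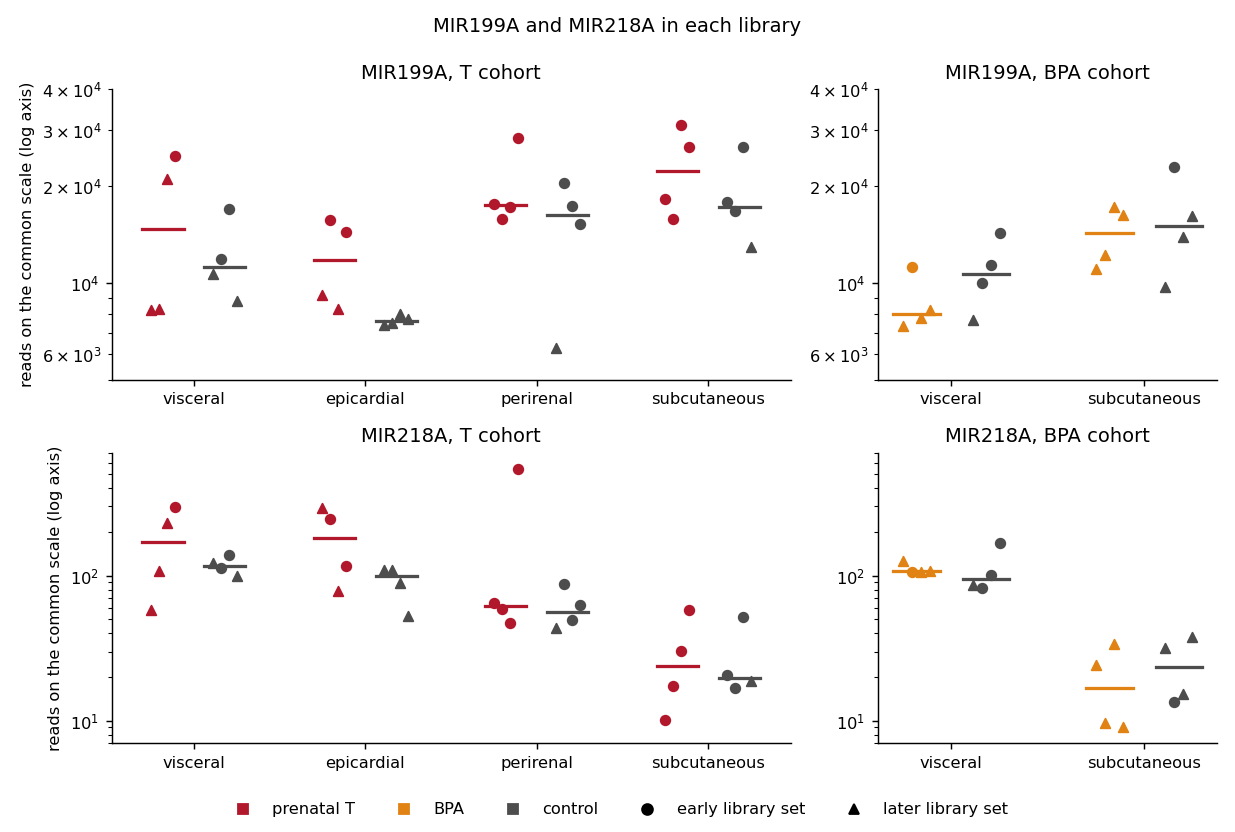
Reads on the common scale (log axis) of MIR199A (top) and MIR218A (bottom) in each library of the T cohort (left) and the BPA cohort (right), by depot; points are libraries, circles the early and triangles the later library set, and bars are medians. Subcutaneous fat has the lowest median of MIR218A in every treatment group (10.1 to 58.5 in prenatal T sheep), and the perirenal library of prenatal T sheep 255 stands alone at 540.2.

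MIR218A was higher in visceral than in subcutaneous fat of every exposed sheep. In the visceral fat of prenatal T sheep 48, 185, 233 and 255 it stood at 57.7, 108.5, 231 and 298 common-scale reads, and in their subcutaneous fat at 10.1, 17.4, 30.3 and 58.5. The ranges touched only because the subcutaneous library of sheep 255 (58.5) lay just above the visceral library of sheep 48 (57.7); both sheep differed in the same direction. The difference was 2.55 log2 units (SE 0.67, limma adjusted p = 0.0187), a 5.85-fold higher level on the log2(value + 1) scale. In this comparison 13 of 80 microRNAs were called (16.2%, limma, adjusted p under 0.05), 7 of them higher (8.75%) and 6 lower (7.5%) in visceral fat.

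The BPA sheep gave a difference of like size. MIR218A stood at 125.7, 105.9, 106.3 and 107.7 common-scale reads in visceral fat of BPA sheep 910, 918, 977 and 984, and at 24.1, 9.65, 34.1 and 9.11 in their subcutaneous fat. The groups did not overlap, and the 4 visceral libraries were close together while the subcutaneous ones ranged from 9.11 to 34.1. How many other microRNAs had no overlap here was not counted. The difference was 2.67 log2 units (SE 0.40, limma adjusted p = 0.000171), in a comparison that called 33 of 74 microRNAs (44.6%), 21 of them higher (28.4%) and 12 lower (16.2%) in visceral fat. Within the later library set alone, which held 3 of the 4 visceral and all subcutaneous libraries, it was 2.70 (limma adjusted p = 0.00115).

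Over the 8 exposed sheep together, paired within the sheep, visceral fat exceeded subcutaneous fat in MIR218A by a mean of 2.61 log2 units (SE 0.21, range 1.61 to 3.43). It was higher in 8 of 8 sheep, with a two-sided exact sign-flip p of 0.00781, the smallest that 8 pairs can give. The share of all microRNAs that kept the same direction in 8 of 8 sheep was not counted. Between these depots limma called 16.2% of all microRNAs in prenatal T sheep and 44.6% in BPA sheep, so a depot difference was not special to MIR218A. Fewer cells that make MIR218A and less of it per cell cannot be told apart in these bulk tissues. In the prenatal T sheep the difference in MIR218A within a sheep ran from 2.33 to 2.89. Leaving out any of these sheep kept the group difference at 2.43 to 2.62. The call in this group came from a fit that did not pair the depots of a sheep, and it was lost without some sheep. Without sheep 185 the difference was 2.54 (limma adjusted p = 0.119) and without sheep 233 it was 2.43 (limma adjusted p = 0.144). On CPM of microRNA reads it was 2.66 (limma adjusted p = 0.0721). With sheep as a block it was 2.55 (limma adjusted p = 0.00109).

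MIR199A went the other way. In prenatal T sheep 48, 185, 233 and 255 it stood at 8207, 8273, 21038 and 24860 common-scale reads in visceral fat and at 18195, 15820, 31056 and 26475 in subcutaneous fat. Each sheep was lower in visceral fat, but the sheep differed so much from each other that the groups overlapped. The difference of -0.68 log2 units (SE 0.44) did not pass the test over libraries (limma adjusted p = 0.304, 95% interval -1.64 to 0.27). All 4 subcutaneous libraries of these sheep are of the early set and 3 of the 4 visceral ones of the later set. Fitted with library set as a covariate, the difference was 0.17. That fit sets the visceral library of sheep 255 against the subcutaneous libraries of all 4 sheep. Within sheep 255 itself the difference was -0.091. Depot and library set cannot be told apart here. For MIR218A this covariate gave 3.59, against 2.33 within sheep 255.

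In the BPA sheep MIR199A fell in visceral fat. It stood at 7332, 11233, 7800 and 8224 common-scale reads in visceral fat of sheep 910, 918, 977 and 984, against 11012, 12238, 17253 and 16259 in subcutaneous fat. The groups overlapped narrowly, the visceral library of sheep 918 lying just above the subcutaneous one of sheep 910. The difference was -0.71 log2 units (SE 0.20, limma adjusted p = 0.0126), and -0.84 within the later set (limma adjusted p = 0.00768). It missed the threshold without sheep 977 (-0.56, limma adjusted p = 0.115), without sheep 984 (-0.62, limma adjusted p = 0.0977) and on CPM (-0.52, limma adjusted p = 0.224).

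Paired over the 8 exposed sheep, MIR199A was lower in visceral than in subcutaneous fat in 8 of 8 sheep, with a mean difference of -0.70 log2 units (SE 0.15); the two-sided exact sign-flip p was 0.00781. The differences ran from -1.15 to -0.091, and the 2 sheep nearest to 0 were prenatal T sheep 255 (-0.091) and BPA sheep 918 (-0.12). On CPM the mean difference was -0.55 and the exact sign-flip p was 0.0547. As for MIR218A, the share of all microRNAs with the same direction in 8 of 8 sheep was not counted.

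The number of MIR199A reads for each MIR218A read in a library takes no scaling factor, and it separated the depots completely. In visceral fat there were 142.4, 76.2, 90.99 and 83.3 reads of MIR199A for each read of MIR218A in prenatal T sheep 48, 185, 233 and 255, and 58.4, 106.1, 73.4 and 76.3 in BPA sheep 910, 918, 977 and 984. In subcutaneous fat there were 1805, 907, 1023 and 453 in the prenatal T sheep and 456, 1268, 506 and 1786 in the BPA sheep. Every subcutaneous library was thus above every visceral one, and the visceral values were the tighter. The log2 ratio of MIR218A to MIR199A, taken from log2(value + 1) on the common scale, was higher in visceral fat by a mean of 3.31 (SE 0.22, range 2.42 to 4.41), in 8 of 8 sheep (two-sided exact sign-flip p = 0.00781, which was also its value after adjustment over the 3 paired tests). In the 4 sheep whose visceral and subcutaneous libraries are of 1 library set, the mean difference was 3.13; the smallest p that 4 pairs allow is 0.125. The 3 paired tests are not independent, since the log2 ratio is the difference of both log2 levels. How often ratios of other microRNAs separated the depots completely, or kept the same direction in 8 of 8 sheep, was not counted.

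**Figure D2:**
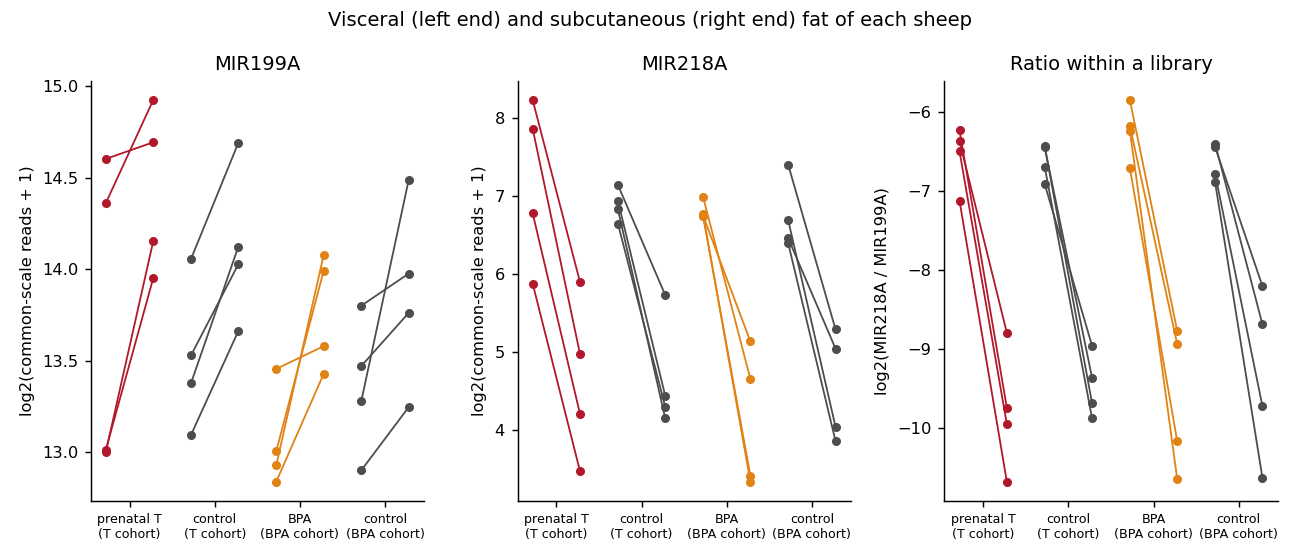
Lines join the visceral (left end) and subcutaneous (right end) library of each sheep, for log2(common-scale reads + 1) of MIR199A and of MIR218A and for the log2 ratio of MIR218A to MIR199A, in prenatal T and control sheep of the T cohort and BPA and control sheep of the BPA cohort. MIR218A and the ratio are higher at the visceral end of all lines, by 1.61 to 3.43 log2 units in exposed sheep for MIR218A, and MIR199A is lower there.

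The control sheep, in which the difference was known before, had values of the same size. MIR218A stood at 99.0 to 140 common-scale reads in visceral fat of T-cohort controls, against 16.8 to 52.0 in their subcutaneous fat. In BPA-cohort controls it stood at 82.8 to 167.4 in visceral fat, against 13.5 to 38.04. The mean paired differences were 2.23 and 2.18 log2 units, with no overlap of depots in either cohort. The share of all microRNAs without overlap in these controls was not counted. MIR199A was lower in visceral fat in 4 of 4 control sheep of each cohort, by mean differences of -0.61 and -0.50 log2 units. The change of the depot difference with treatment was tested as an interaction, which subtracts the control difference by which MIR218A was chosen. It was not called for either microRNA: for MIR218A it was 0.37 with prenatal T (95% interval -1.29 to 2.03, limma adjusted p = 0.988) and 0.50 with BPA (-0.73 to 1.72, limma adjusted p = 0.831). A control difference chosen because it stood out may be overstated, which would lower the interaction for MIR218A. These p values are therefore not those of a microRNA chosen without regard to the controls.

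Of the 4 depots of the prenatal T sheep, subcutaneous fat stood lowest in MIR218A. Its median was 23.9 common-scale reads there, against 182, 170 and 62.1 in epicardial, visceral and perirenal fat. The difference of subcutaneous fat from the mean of the other 3 depots was -2.43 log2 units (SE 0.61, limma adjusted p = 0.00663), in a comparison that called 29 of 82 microRNAs (35.4%), 11 higher (13.4%) and 18 lower (22%). The call held without each of the 4 sheep (-2.69 to -2.16, limma adjusted p = 0.000979 to 0.0419), sheep 255 included. Visceral, epicardial and perirenal fat did not differ from the mean of the others beyond the spread: the differences were 0.97, 1.18 and 0.27 (limma adjusted p = 0.415, 0.293 and 0.772), where 0%, 4.88% and 11% of microRNAs were called.

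Sheep 255 weighed on that order. In perirenal fat MIR218A stood at 64.9, 59.3 and 47.6 in prenatal T sheep 48, 185 and 233 and at 540.2 in sheep 255, where no microRNA lay farther above the mean of the other libraries. Without sheep 255, epicardial fat was above the mean of the other depots by 1.86 (limma adjusted p = 0.0216) and perirenal fat below it at -0.33 (limma adjusted p = 0.706); all 4 libraries of the sheep are left out there. With its perirenal library alone left out, an alternative chosen after seeing the data, they were at 1.45 (limma adjusted p = 0.0893) and -0.53 (limma adjusted p = 0.595). In epicardial fat MIR218A spread from 79.1 to 294. With all 4 sheep, only the low level of subcutaneous fat was separated from the other depots past the threshold.

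MIR199A had another order on the common scale, in which subcutaneous fat stood highest and epicardial fat lowest. The medians in prenatal T sheep were 22335 common-scale reads in subcutaneous, 17435 in perirenal, 14656 in visceral and 11774 in epicardial fat. In control sheep they were 17268, 16291, 11236 and 7590 in the same order of depots. On CPM the order was not the same in control sheep, whose medians were 21726 in subcutaneous, 25565 in perirenal, 11440 in visceral and 15261 in epicardial fat. In prenatal T sheep they were 33879, 33668, 29096 and 24732 CPM. None of these depots differed from the mean of the other 3 in prenatal T sheep past the threshold: subcutaneous fat was at 0.61 (limma adjusted p = 0.147) and epicardial fat at -0.65 (limma adjusted p = 0.293), and perirenal and visceral fat were at 0.34 and -0.30. On the common scale, epicardial fat was below subcutaneous fat in 4 of 4 prenatal T sheep and in 4 of 4 control sheep, without overlap of the depots in either group. The share of all microRNAs separated in this way was not counted. On CPM these depots overlapped in both groups. Epicardial fat was then higher in control sheep 201 (17179 against 16733) and prenatal T sheep 185 (29490 against 23301), and lower in the other sheep.

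Prenatal exposure changed neither microRNA past the threshold in any depot. None of the 71 to 86 microRNAs tested in a depot was called for prenatal T or for BPA by limma (0% in each of the 6 comparisons). At an unadjusted p under 0.05 there were 2, 4, 20 and 7 for prenatal T in subcutaneous, visceral, epicardial and perirenal fat, and 6 and 4 for BPA in the first 2 of these. For MIR199A the effect of prenatal T was 0.20 (95% interval -0.47 to 0.88) in subcutaneous fat, 0.19 (-0.73 to 1.11) in visceral fat and 0.44 (-0.50 to 1.38) in perirenal fat. For MIR218A it was -0.11 (-1.23 to 1.01), 0.25 (-0.90 to 1.41) and 0.70 (-0.74 to 2.13) in the same depots. Without sheep 255 the effects on MIR199A were 0.098, -0.060 and 0.29 in these depots, and those on MIR218A were -0.55, -0.055 and -0.077. The perirenal effect on MIR199A was 0.083 without control sheep 098, whose perirenal library is the only one of the later set, and 1.02 on CPM. The upper ends of these intervals, at 0.88 to 2.13 log2 units, show how large an effect they still allow.

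On the deposited scale the largest effects were those of prenatal T in epicardial fat, the fat on the heart. On CPM those in perirenal fat were larger, at 1.02 for MIR199A and 1.27 for MIR218A, against 0.80 and 1.11 in epicardial fat. MIR199A stood at 9168, 15648, 8266 and 14380 common-scale reads in prenatal T sheep 48, 185, 233 and 255, against 7377, 7473, 7991 and 7708 in control sheep 098, 131, 132 and 201. The groups did not overlap on this scale or as deposited, and the controls were within a narrow band. As deposited, 3.53% of the 85 microRNAs tested in epicardial fat were higher without overlap. The effect on deposited values was 0.80 log2 units (SE 0.26, unadjusted p = 0.00946, limma adjusted p = 0.101). On the common scale the mean log2 levels lay closer together, at 13.48 in prenatal T and 12.9 in control sheep.

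MIR218A stood at 294, 247, 79.1 and 117 common-scale reads in epicardial fat of the same prenatal T sheep, against 110, 110, 88.5 and 52.5 in controls. The groups overlapped through sheep 233. The effect on deposited values was 1.11 log2 units (SE 0.41, unadjusted p = 0.0193, limma adjusted p = 0.149). On the common scale the mean log2 levels lay closer together, at 7.342 in prenatal T and 6.454 in control sheep. Without sheep 233 both effects passed the threshold, at 0.96 for MIR199A and 1.45 for MIR218A (limma adjusted p = 0.0442 each), and 8 of 83 microRNAs were then called.

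Library set differed between the epicardial groups, and tissue markers were uneven across their libraries. All 4 control libraries are of the later set, as are those of prenatal T sheep 48 and 233, and within that set the effects were 0.39 for MIR199A (limma adjusted p = 0.558) and 1.01 for MIR218A (limma adjusted p = 0.558). Of 8 markers of heart and skeletal muscle only MIR133 was in the table, and it was at 25850, 11840, 2799 and 372 CPM in prenatal T sheep 48, 185, 233 and 255, against 1295 to 6332 CPM in controls. Among the prenatal T sheep MIR133 did not follow MIR199A: it was lowest in sheep 255, where MIR199A stood at 14380 common-scale reads. Sheep 48 and 185, highest in MIR133, were also highest in MIR218A (294 and 247 common-scale reads). MIR150, a lymphocyte microRNA, was at 2757 to 5410 CPM in prenatal T sheep, below the 6701 to 8144 CPM of controls. The part of muscle and lymphocyte RNA in the epicardial differences was not tested.

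Of the BPA effects, none was called either. The effect on MIR199A was -0.049 (95% interval -0.53 to 0.43) in subcutaneous fat and -0.26 (-0.76 to 0.23) in visceral fat, and on MIR218A it was -0.38 (-1.48 to 0.73) and 0.12 (-0.50 to 0.74). Averaged over depots, the effect of BPA was -0.16 for MIR199A and -0.13 for MIR218A, and that of prenatal T was 0.41 (limma adjusted p = 0.358) and 0.49 (limma adjusted p = 0.442). Without sheep 255 the averaged effects of prenatal T were 0.25 and 0.14. No change of the ratio of the pair with either exposure passed the test in any depot: the differences in log2 ratio lay between -0.33 and 0.38, with exact permutation p values, adjusted over the 6 tests, of 0.857 or more.

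**Figure D3:**
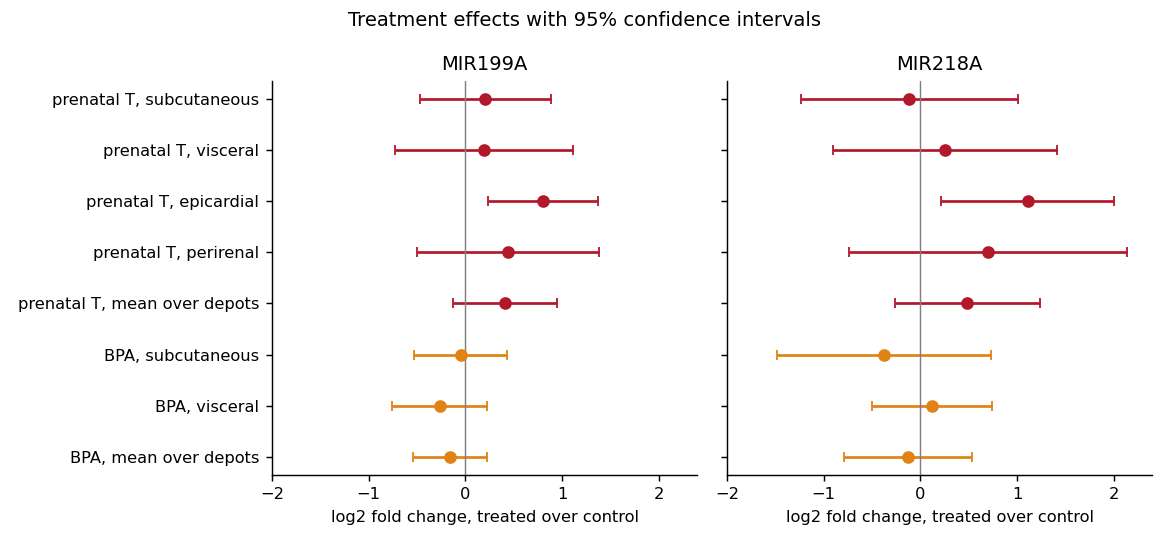
Log2 fold changes of MIR199A (left) and MIR218A (right), prenatal T over control and BPA over control, by depot and averaged over depots; points are estimates and bars 95% confidence intervals from limma. Of the 6 depot comparisons the intervals exclude 0 in epicardial fat of prenatal T sheep alone (0.80 and 1.11), and neither passed adjustment over all microRNAs.

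The pair went opposite ways between visceral and subcutaneous fat, and within groups of the T cohort the levels of both moved together. Across the 32 libraries of the T cohort the correlation of their log2 common-scale levels was -0.037 (0.36 on CPM), and across the 16 libraries of the BPA cohort it was -0.61. These values pool depots, the control libraries behind the choice of MIR218A included. Taken as deviations from the mean of each group of 4, r was 0.65 in the T cohort (0.80 on CPM) and -0.045 in the BPA cohort (0.10 on CPM). Such deviations still share scaling factors. In 7 of the 12 groups the same sheep was highest in both microRNAs, and in 4 of the 12 the same sheep was lowest in both. How often other pairs of microRNAs shared their highest or lowest sheep was not counted. Among 72 other microRNAs, MIR199A was most like MIR152 in both cohorts, with r = 0.91 over 32 libraries and 0.94 over 16. MIR152, a member of the miR-148 family known to target the DNA methyltransferase DNMT1, had medians of 585 and 1556 common-scale reads in visceral and subcutaneous fat of prenatal T sheep, and 474 and 778 in BPA sheep. It fell in visceral fat of both (-1.30 and -0.68 log2 units, limma adjusted p = 0.0410 and 0.0108). MIR152 was picked for its likeness to MIR199A over libraries that include these, so its fall is not independent of that choice.

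The next most like MIR199A in the T cohort were MIRLET7I (0.82), of the let-7 family that restrains proliferation, MIR148A (0.80), which promotes adipocyte formation, MIR21 (0.74), known from inflammation and fibrosis, and MIR10A (0.70), of a HOX gene cluster. In the BPA cohort their r was lower, at 0.43, 0.46, 0.55 and 0.46. Least like it were MIR433 (-0.83) and MIR485 (-0.78), both of the imprinted DLK1-DIO3 region, at -0.72 and -0.84 in the BPA cohort. These coefficients describe libraries that share sheep and scaling factors: r with MIR433 was -0.54 on CPM.

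MIR218A was most like MIR200A (r = 0.75) and MIR200B (0.75) in the T cohort, which mark epithelial and mesothelial cells and repress the ZEB factors, then MIR487B (0.70), MIR411A (0.69) and MIR495 (0.65), which lie in the DLK1-DIO3 region. In the BPA cohort these values were 0.63, 0.72, 0.75, 0.67 and 0.84. There MIR200A and MIR200B ranked only 19 and 16 of 72, and MIR127 came first (0.87). MIR200A was near the floor in subcutaneous fat of the T cohort, with means of 1.5 common-scale reads in control and 0.50 in prenatal T sheep. Its least like were MIR191 (-0.64) and MIR125B (-0.62), at -0.82 and -0.37 in the BPA cohort. These values too pool the depots. Within groups, r of MIR218A with MIR200A and MIR200B was 0.65 and 0.49 in the T cohort, beside 0.65 with MIR199A, and -0.24 and -0.26 in the BPA cohort. MIR200C, which marks epithelial cells, stood apart from MIR200A and MIR200B: its r with MIR218A over all libraries was -0.16 across T-cohort and -0.66 across BPA-cohort libraries.

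MIR200A and MIR200B were together higher in visceral fat of 7 of the 8 exposed sheep, and MIR200C in 2 of 8. Of 6 epithelial and mesothelial markers these 3 were in the table. The sum of MIR200A and MIR200B was 4.49, 126.4, 384 and 254 CPM in visceral fat of prenatal T sheep 48, 185, 233 and 255, against 9.13, 1.61, 1.78 and 7.67 CPM in subcutaneous fat. In BPA sheep 910, 918, 977 and 984 it was 277, 327.4, 244 and 189 CPM in visceral fat, against 48.4, 97.04, 2.29 and 28.9 CPM in subcutaneous fat. The defining member MIR200A was listed at 0 in the visceral library of sheep 48, the sheep whose sum was lower in visceral fat.

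MIR200C stood at 18.7, 102.8, 10.4 and 23.5 CPM in visceral fat of the BPA sheep, against 26.4, 235.1, 26.7 and 59.5 CPM in subcutaneous fat, lower in visceral fat of all 4. In the prenatal T sheep it was listed at 0 and stood at 48.3, 23.97 and 11.3 CPM in visceral fat, against 18.3, 14.4, 10.7 and 26.1 CPM in subcutaneous fat. The sum of all 3 was higher in visceral fat in 3 of 4 prenatal T and 4 of 4 BPA sheep.

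In sheep 48 MIR218A was higher in visceral fat by 2.404 log2 units. The sums of MIR200A and MIR200B in that sheep, 4.49 CPM in visceral and 9.13 CPM in subcutaneous fat, rest on a few reads each. Those libraries held 222537 and 328553 microRNA reads, so the direction of that sum is not settled. In the perirenal library of prenatal T sheep 255, where MIR218A was at 540.2, that sum was 186 CPM, against 4.52 to 12.9 CPM in the other 3 prenatal T sheep. The part of mesothelial or epithelial cells in the depot difference was not tested.

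**Figure D4:**
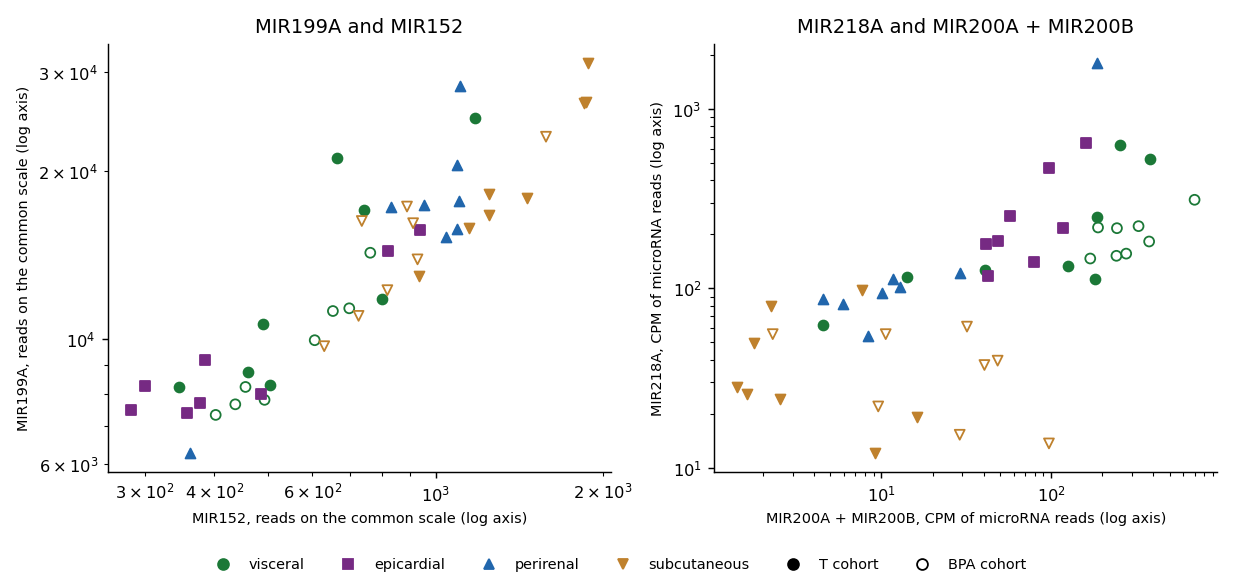
Left, MIR199A against MIR152 in reads on the common scale; right, MIR218A against the sum of MIR200A and MIR200B, both in CPM of microRNA reads; all axes are log axes, each point is a library, and colour and shape give the depot (filled, T cohort; open, BPA cohort). MIR199A and MIR152 lie along a line in both cohorts (r = 0.91 and 0.94). On the right no subcutaneous library exceeds 97.04 CPM of MIR200A and MIR200B. Libraries of every other depot also lie below that level, among them visceral ones of T-cohort sheep 098, 201 and 48 (40.8, 14.07 and 4.49 CPM).

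Most of the other mesenchymal and stromal microRNAs were not called between depots. Of 20 others on the list, 11 were in the table and tested. In visceral against subcutaneous fat MIR218A was called higher in prenatal T and in BPA sheep, and none of these 11 was. In prenatal T sheep 0 rose and 3 fell in visceral against subcutaneous fat (MIR10B -1.92, MIR152 -1.30 and MIR10A -1.23), where 8.75% of all microRNAs rose and 7.5% fell, with a median of -0.43, against 0.17 over all 80 microRNAs tested. In BPA sheep 0 rose and 4 fell (MIR10B -1.75, MIR21 -1.63, MIR29A -0.86 and MIR152 -0.68), where 28.4% of all rose and 16.2% fell, with a median of -0.50, against -0.14 over all 74. In subcutaneous fat of prenatal T sheep, set against the other 3 depots, 3 of 11 rose (MIR10A, MIR10B and MIR152) and 0 fell, where 13.4% of all rose and 22% fell. No list member was called for either exposure; in epicardial fat of prenatal T sheep the median of the 11 was 0.83, against 0.14 over all 85 microRNAs. The whole list took 21% to 34% of microRNA reads in epicardial fat of prenatal T sheep and 15.6% to 19.1% in that of controls.

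Of the other cell type lists, the markers of myeloid cells, endothelium, red blood cells, and neural and endocrine cells were not among the listed microRNAs, so their share could not be followed beside these results.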

How the data were processed

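The deposited microRNA values are a signal: reads per microRNA divided by a size factor per library, scaled by the authors separately in each depot, as seen from the values themselves. Per the submitters' processing notes, cutadapt 3.2, STAR 2.6.0c and featureCounts 1.6.1 were used; no source used here names the build. Every value was a whole multiple of 1 step per library within 1e-05, which gave the read numbers. For depot comparisons, libraries of a cohort were rescaled together by median ratios. limma 3.58.1 (R 4.3.3, trend) was fitted to log2(value + 1) of microRNAs with a mean of at least 5, and p was adjusted (Benjamini-Hochberg) over all microRNAs tested and called under 0.05. The fits were tested on simulated data. Fold changes on this scale understate changes of low microRNAs.

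Single values over sheep used exact sign-flip tests, and ratios between treatment groups exact permutation tests of 4 against 4, whose smallest two-sided p is 0.0286. Depots of a sheep are paired because they come from the same animal: the median correlation of deviations was 0.147 within a sheep and -0.0241 between sheep in the T cohort (27 of 48 pairs over 0.1), and 0.183 and 0.0126 in the BPA cohort. With sheep as a block, 28 rather than 13 of 80 microRNAs were called between visceral and subcutaneous fat of prenatal T sheep. Each library of a group came from another sheep. Members, lists and tests were chosen with earlier results of these data known. Named were both members, the 5 most and 2 least like microRNAs of each, and up to 4 of the mesenchymal list; MIR133, MIR150 and the MIR200 group are cell type markers. Tables of other RNA classes were not used here.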

Additional observations from a re-analysis of the deposited data

Results flagged for a closer look

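Within groups of 4 sheep, a highest or lowest library that lay far from the other 3 (Dixon's test at the 95% level, which chance meets in about 1 in 20 groups) was found in 5 of 36 tests. MIR218A stood at 540.2 common-scale reads in the perirenal library of prenatal T sheep 255, against 47.6 to 64.9 in the other 3. The same library held 28250 of MIR199A, against 15748 to 17625 in the others, and its log2 ratio of MIR218A to MIR199A was -5.71. In subcutaneous fat of T-cohort controls, sheep 132 stood at 52.0 of MIR218A, against 16.8 to 20.7 in the others. In visceral fat of BPA sheep, sheep 910 stood at 125.7 of MIR218A, against 105.9 to 107.7 in the others, a gap that was small beside the difference from subcutaneous fat.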

How the results depend on the processing

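Of 486 recomputed values, 430 kept direction and side of the threshold, 33 reversed, 16 lost a call and 7 gained one; 9 of those 16 are splits into 4 pairs, whose smallest p of 0.125 cannot pass. Every alternative left MIR218A higher in visceral than subcutaneous fat of exposed sheep. With sheep as a replicate block the difference was 2.55 in prenatal T sheep (limma adjusted p = 0.00109), and the block changed no call on either microRNA. On the deposited scaling, MIR199A was at -1.32 (visceral against subcutaneous), -1.44 (visceral against other depots) and 1.17 (perirenal against others) in prenatal T sheep, all called; MIR218A was at -0.16 (visceral against others) and 1.78 (epicardial against others, called). With a library set term, MIR199A was at 0.17, 0.25 and -0.048 in those 3 contrasts, at 0.37 for the prenatal T effect on the depot difference, and at 0.12 and 0.031 for BPA in subcutaneous and visceral fat; MIR218A was at -0.012 in perirenal fat against the others, and at -0.53 with only the perirenal library of sheep 255 left out. Within the later set the BPA effect on subcutaneous MIR199A was 0.12 and the ratio effect of prenatal T in visceral fat -0.18. On CPM, MIR199A was at -0.52 (visceral against subcutaneous, BPA sheep), -0.55 (8 sheep), and 0.16 and 0.0097 for prenatal T and BPA effects on that difference; MIR218A was at 2.66 (prenatal T sheep) and 0.14 (prenatal T, subcutaneous). Split into prenatal T sheep, BPA sheep and sheep of 1 library set, 4 pairs each, the paired means were -0.68, -0.71 and -0.70 for MIR199A, 2.55, 2.67 and 2.43 for MIR218A, and 3.23, 3.38 and 3.13 for the ratio. The cause of these changes was not tested.

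Leaving out 1 sheep at a time, prenatal T effects on MIR199A ran from -0.060 to 0.43 (visceral), 0.66 to 0.96 (epicardial) and -0.16 to 0.14 (on the depot difference), and on MIR218A from -0.55 to 0.28 (subcutaneous), -0.055 to 0.68 (visceral), 0.84 to 1.45 (epicardial) and -0.077 to 1.01 (perirenal). BPA effects ran from -0.21 to 0.12 (MIR199A, subcutaneous) and -0.31 to 0.087 (MIR218A, over depots). Visceral against subcutaneous fat gave -0.91 to -0.56 for MIR199A in BPA sheep and 2.43 to 2.62 for MIR218A in prenatal T sheep; against the other depots MIR218A gave 0.55 to 1.86 (epicardial) and -0.33 to 0.62 (perirenal). Ratio effects of prenatal T ran from -0.041 to 0.25 (visceral), -0.090 to 0.57 (epicardial) and -0.36 to 0.56 (perirenal), and of BPA from -0.77 to 0.041 (subcutaneous). Count models were planned and not run, since the deposited values are normalized. With 4 sheep a group and as few as 4 reads of MIR218A, treatment effects within a depot had SEs of 0.22 to 0.65 log2 units.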
